A study of Mus musculus with 14 samples.

Results

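The subject is a group of 10 mouse genes of antigen presentation, chosen by their symbols from the 45706 genes in each deposited table: the class I genes H2-K1, H2-D1, H2-Q4, H2-Q6 and H2-Q7, the class I light chain B2m, the class II chains H2-Aa, H2-Ab1 and H2-Eb1, and the class II invariant chain Cd74. They were measured by RNA sequencing in 14 libraries of blood-forming cells in which Prmt5, the gene of an enzyme that methylates arginine in histones and splicing proteins, had been deleted (KO) or kept (WT). The design thus asks how loss of Prmt5 changes expression in LK progenitor cells and in 2 fractions of fetal liver.

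The 3 libraries of LK KO came from Mx1-cre;PRMT5fl/fl mice and the 3 of LK WT from PRMT5fl/fl mice, all collected 7 days after injection of poly(I:C), a double-stranded RNA mimic that provokes interferon. The Mx1 promoter answers to interferon, so cre is not limited to blood cells there, and both LK groups had met the same inducer. LK is the usual name for lineage-negative, Kit-positive progenitor cells. In the fetal part, liver cells of E14.5 embryos were sorted by Ter119, a surface antigen of maturing red cells, from Vav-cre;PRMT5fl/fl embryos (KO) and PRMT5fl/fl embryos (WT), with no inducer. The Vav promoter drives cre across the blood system. The groups were Ter119neg KO, Ter119neg WT, Ter119pos KO and Ter119pos WT, with 2 libraries each, called A and B. KO mice 1 and 2 and WT mouse 4 gave both fractions, while WT library A came from mouse 3 in Ter119neg and from mouse 5 in Ter119pos. The floxed alleles were shared by all 6 groups. No mice are named for the LK libraries, whose p-values therefore cover only the spread from library to library, which may be technical.

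Class I molecules pair a heavy chain, such as those from H2-K1 and H2-D1, with beta-2 microglobulin from B2m, and show peptides made in the cytosol to CD8 T cells and natural killer cells. H2-Q6 and H2-Q7 encode nonclassical class I molecules of the Qa-2 type, and H2-Q4 a related molecule. Class II molecules pair an alpha and a beta chain, are held by the invariant chain until they reach the endosome, and are made mainly by dendritic cells, B cells and macrophages. Both classes share promoter elements called the X and Y boxes, bound by RFX, CREB and NF-Y, on which the coactivators Nlrc5 (class I) and Ciita (class II) assemble.

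The promoter stretches below are shown because they hold these shared elements and let the near copies be compared. They come from the RefSeq promoter table (GRCm38.p6), were read 5′ to 3′ on the strand of the gene, and end 10 bases after ATTGG, the core of the Y box. Windows were read for 8 of the 10 genes. Capitals mark ATTGG and, where TGAC stands 20 to 22 bases before it, TGAC with the next 2 bases, which is where the X2 box lies in these promoters.
H2-K1: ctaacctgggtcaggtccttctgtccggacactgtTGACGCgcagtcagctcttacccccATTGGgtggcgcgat
H2-D1: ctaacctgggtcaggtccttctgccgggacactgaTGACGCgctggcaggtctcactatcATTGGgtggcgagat
H2-Q4: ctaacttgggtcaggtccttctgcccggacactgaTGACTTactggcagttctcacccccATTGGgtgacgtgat
H2-Q6: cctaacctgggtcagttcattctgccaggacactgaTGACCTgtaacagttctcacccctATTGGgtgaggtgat
H2-Q7: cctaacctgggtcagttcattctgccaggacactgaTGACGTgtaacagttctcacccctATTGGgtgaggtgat
B2m: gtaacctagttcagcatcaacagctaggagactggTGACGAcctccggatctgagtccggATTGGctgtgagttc
H2-Aa: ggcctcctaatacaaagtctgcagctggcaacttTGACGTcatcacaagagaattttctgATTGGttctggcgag
H2-Eb1: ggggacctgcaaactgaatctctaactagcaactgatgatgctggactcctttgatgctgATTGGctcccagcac
The stretches lie at chr17:34000349-34000423 (H2-K1, minus strand), chr17:35262958-35263032 (H2-D1), chr17:35379478-35379552 (H2-Q4), chr17:35424711-35424785 (H2-Q6), chr17:35439055-35439129 (H2-Q7), chr2:122147574-122147648 (B2m), chr17:34287857-34287931 (H2-Aa, minus strand) and chr17:34305748-34305822 (H2-Eb1), on the plus strand unless stated.

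The 75-base stretches of H2-Q6 and H2-Q7 had the same base at 74 positions, whereas H2-K1 shared 64 with H2-D1 and 63 with H2-Q4. Searched on both strands over 300 bases around each annotated start, ATTGG was present in 8 of 8 of these promoters, against 37.4% of 32851 promoters of the same length. TGAC followed by ATTGG after 20 to 22 bases was present in 7 of 8 (H2-Eb1 lacked it), against 0.639% of all; this spacing was chosen after the promoters had been read. TGACGC stood in 3 of 8, namely H2-K1, H2-D1 and H2-Q4 (in H2-Q4 outside the stretch shown), against 7.4% of all. Of the interferon elements, the interferon-stimulated response element core was found in B2m alone of the 8, against 3.44% of all, and the gamma-activated sequence TTCNNNGAA in none of the 8, against 8.3%. A match describes letters in a window and says nothing of whether a factor is bound.

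A library held 19514550 to 30976961 counts in LK, 22381074 to 27620734 in Ter119neg and 19880052 to 29652947 in Ter119pos. Levels are given as TMM-normalised CPM, counts scaled to a common library size, and a difference is called when edgeR's quasi-likelihood test gives an adjusted p under 0.05 over all genes tested. Prmt5 itself stood at 10.5 to 12.3 CPM in LK KO against 63.1 to 110 in LK WT, at 4.26 to 4.51 against 51.8 to 52.3 in Ter119neg, and at 3.64 to 4.92 against 13.8 to 17.7 in Ter119pos. The progenitor receptor Kit was at 209 to 388 CPM in all LK libraries and Ly6a, which encodes the stem cell antigen Sca-1, at 1.62 or less, while the globin Hbb-bs was at 108395 to 169547 CPM in Ter119pos. In the letter B LK libraries an 18S ribosomal RNA gene took 23.4% (KO) and 18% (WT) of counts, against at most 0.274% elsewhere. A fit with the library letter as a block is given beside LK results whose call it changes. In these bulk samples, fewer cells of a type and less RNA per cell cannot be told apart.

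All 10 genes passed the low-count filter in both the LK and the fetal models, the H2-Q and class II genes in the fetal model only through Ter119neg. The near copies share sequence: 8.11% of the 50-base words of the longest H2-K1 transcript also occur in another gene, 14.3% for H2-D1, 22% for H2-Q4, 32% for H2-Q6 and 28.4% for H2-Q7. For B2m, H2-Ab1, H2-Eb1 and Cd74 the share was 0, and for H2-Aa it was 0.599%. RSEM divides shared reads by estimate, so the split among H2-Q4, H2-Q6 and H2-Q7 is uncertain and their sum is given too.

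Per kilobase of the longest transcript, B2m had the highest level of the 10 in every group. It averaged 550 ± 39.4 CPM per kb in LK KO and 1427 ± 542 in LK WT (SD, n = 3 each), 37.6 ± 0.965 in Ter119neg KO and 45 ± 2.3 in Ter119neg WT, and 41.4 ± 7.94 in Ter119pos KO and 18.3 ± 3.16 in Ter119pos WT (SD, n = 2 each). H2-K1 followed in LK, at 212 ± 14.9 CPM per kb in KO, above H2-D1 at 152 ± 4.18 with no overlap, and at 507 ± 181 in WT, where its libraries overlapped those of H2-D1 at 444 ± 69.5. In all 4 fetal groups the order of the pair was turned round, with H2-D1 above H2-K1 in every library, for example 25.5 ± 5.81 and 13.7 ± 3.02 CPM per kb in Ter119pos KO and 10 ± 0.221 and 2.43 ± 0.0594 in Ter119pos WT. The class II genes and the H2-Q genes stood below these 3 everywhere. In LK WT the range from H2-Q6 (45.8 ± 7.15 CPM per kb) through H2-Q7, H2-Ab1 and H2-Q4 to Cd74 (26.2 ± 7.16) held no pair of neighbours that separated. In LK KO the same genes were spread out, with H2-Ab1 (17.2 ± 3.6) above H2-Q4 (12.4 ± 1.82), H2-Q6 (6.97 ± 2.25), Cd74 (4.55 ± 1.32) and H2-Q7 (3.97 ± 0.53). Among these neighbours only H2-Q6 with Cd74 and Cd74 with H2-Q7 overlapped. Levels set across LK and fetal tables come from separate normalisations and RNA kits.

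In LK progenitors, MHC genes of both classes were lower in KO. Of the 10, 6 were called lower and none higher (H2-Q7, H2-Q6, H2-D1, H2-Aa, H2-Eb1 and Cd74), where 0.661% of 13771 genes were called lower, 1.15% higher and 1.82% in either direction. With the letter as a block, 10 of 10 were called lower, against 12.8% of genes (22.7% in either direction). The median log2 fold change of the 10 was -1.81, against -0.09 over all genes. In 9 of the 10, every KO library lay below every WT library, which held for 12.9% of genes, and within each of letters A, B and C the KO library lay below its WT partner for all 10.

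The classical class I genes were high in LK cells and lower in KO. H2-D1 (chromosome 17, 35262730 to 35267499) had 330, 314 and 317 CPM in KO libraries A, B and C, against 867, 1101 and 832 in WT. The KO libraries lay within a narrow band, and the groups were far apart. H2-D1 was called lower (log2 fold change -1.54, SE 0.26, edgeR adjusted p = 0.0378). H2-K1 (chromosome 17, 33996017 to 34000347, minus strand) had 393, 428 and 373 CPM in KO against 790, 1338 and 721 in WT (log2 fold change -1.26, SE 0.32). The groups did not overlap, WT library B stood well above the other two, and H2-K1 was not called (edgeR adjusted p = 0.109, and 0.00852 with the letter as a block), nor was it without that library (-0.93, adjusted p = 0.111). The light chain gene B2m (chromosome 2, 122147686 to 122153083) had 434, 490 and 496 CPM in KO against 874, 1756 and 1051 in WT. It too was separated without being called (log2 fold change -1.37, SE 0.34, edgeR adjusted p = 0.0994, and 0.00876 with the block). Counts of H2-K1 per count of B2m overlapped between genotypes, at 0.905, 0.874 and 0.752 in KO and 0.903, 0.762 and 0.686 in WT.

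**Figure D1:**
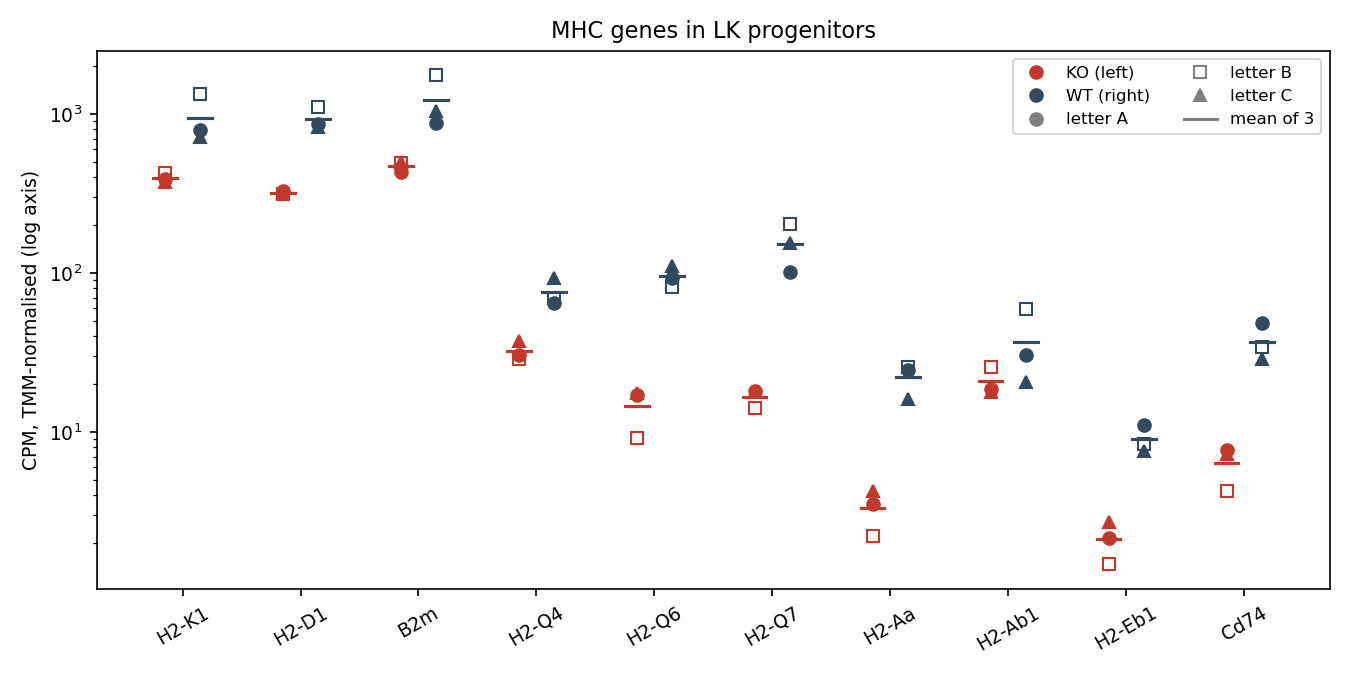
Level of each gene (CPM, TMM-normalised, log axis) in each LK library, KO in red on the left and WT in dark blue on the right of each pair; symbols give the letter and bars the mean of 3. The groups are separate for every gene but H2-Ab1, and the gap is widest for H2-Q7, at 14.1 to 18 CPM in KO and 102 to 203 in WT.

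The nonclassical H2-Q genes were lower as well, and H2-Q7 had the largest fold change of the 10. H2-Q7 (chromosome 17, 35439155 to 35443773) had 18, 14.1 and 18 CPM in LK KO against 102, 203 and 154 in LK WT (log2 fold change -3.20, SE 0.31, edgeR adjusted p = 0.00657). H2-Q6 (chromosome 17, 35424850 to 35430055) had 17, 9.12 and 17.5 CPM in KO against 93.7, 81.6 and 111 in WT (log2 fold change -2.71, SE 0.31, edgeR adjusted p = 0.0113). H2-Q7 was thus 9.16-fold and H2-Q6 6.56-fold lower in KO, with no overlap. H2-Q4 (chromosome 17, 35379617 to 35385290) had 30.5, 28.7 and 37.6 CPM in KO against 65, 69.8 and 93.1 in WT. Its log2 fold change of -1.23 (SE 0.23) just missed the call (edgeR adjusted p = 0.051, and 0.00222 with the block).

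Because the 3 genes share reads, their summed counts were tested as 1 row. They came to 2124, 776 and 2573 counts in LK KO against 9643, 4378 and 12303 in LK WT, or 65.5, 51.9 and 73.2 CPM against 261, 355 and 359. The sum was 5.11-fold lower in KO (log2 fold change -2.35, SE 0.26, edgeR adjusted p = 0.0102), and it lost its call without KO library A (adjusted p = 0.104), B (0.0643) or C (0.0663). Per 1000 counts of H2-K1 and H2-D1 there were 90.5, 70 and 106 counts of the 3 H2-Q genes in KO, against 158, 145 and 231 in WT, with no overlap. The split moved too, with 0.59, 0.493 and 0.478 counts of H2-Q7 per count of H2-Q4 in KO and 1.57, 2.92 and 1.66 in WT.

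**Figure D2:**
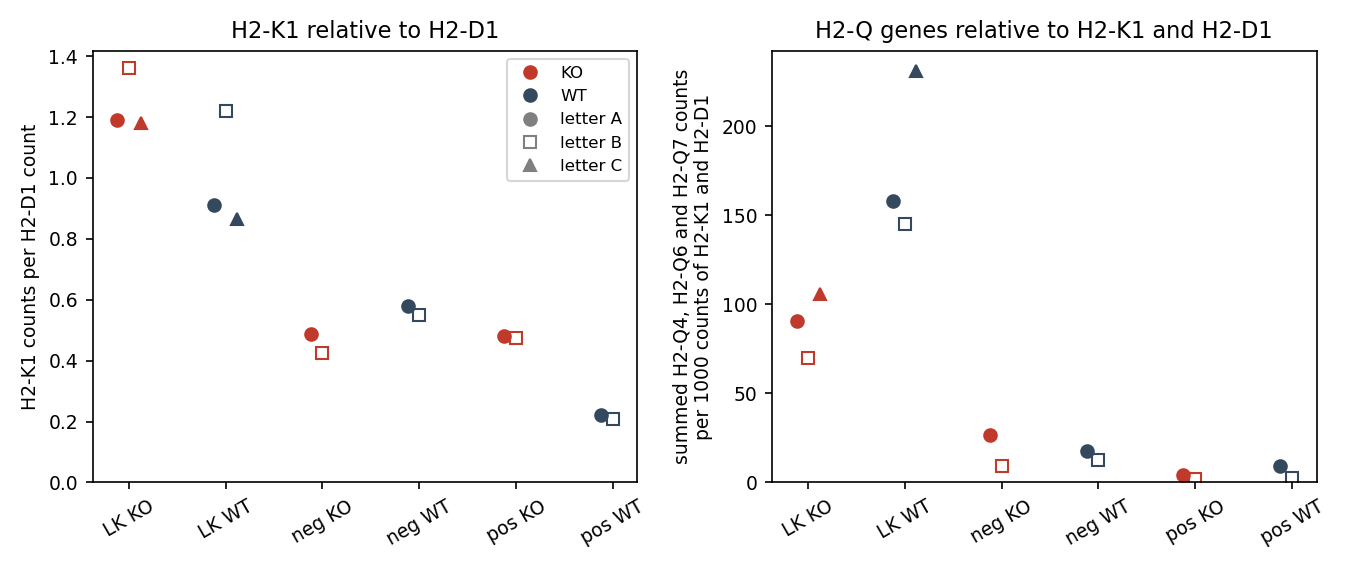
Left, counts of H2-K1 per count of H2-D1; right, summed counts of H2-Q4, H2-Q6 and H2-Q7 per 1000 counts of H2-K1 and H2-D1, for each library of the 6 groups, KO in red left of WT in dark blue. H2-K1 exceeds H2-D1 in LK KO (1.18 to 1.36) and in LK WT library B (1.22), but not in LK WT libraries A and C (0.911 and 0.866). This ratio is lowest in Ter119pos WT (0.223 and 0.209). The H2-Q value is 70 to 106 in LK KO and 158, 145 and 231 in LK WT.

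The class II genes were expressed at low to moderate levels in LK cells and were also lower in KO. H2-Aa, the alpha chain of the I-A molecule (chromosome 17, 34282744 to 34287823, minus strand), had 3.51, 2.21 and 4.26 CPM in KO against 24.5, 25.6 and 16.2 in WT (log2 fold change -2.72, SE 0.34, edgeR adjusted p = 0.0143). Cd74 (chromosome 18, 60803848 to 60812652) had 7.68, 4.28 and 7.31 CPM in KO against 48.2, 34 and 28.7 in WT (log2 fold change -2.52, SE 0.33, edgeR adjusted p = 0.0187). H2-Eb1, the beta chain of the I-E molecule (chromosome 17, 34305867 to 34316674), had 2.16, 1.47 and 2.7 CPM in KO against 11.1, 8.35 and 7.58 in WT. H2-Eb1 was called as well (log2 fold change -2.08, SE 0.33, edgeR adjusted p = 0.0313), and in these 3 genes no library of one genotype overlapped the other.

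H2-Ab1, the beta chain partner of H2-Aa (chromosome 17, 34257689 to 34269419), did not follow them. It had 18.7, 25.8 and 17.9 CPM in LK KO against 30.3, 59.5 and 20.6 in LK WT, with KO library B above WT library C. The log2 fold change of -0.82 (SE 0.40) was not called (edgeR adjusted p = 0.354, and 0.0489 with the block). Counts of H2-Aa per count of H2-Ab1 were 0.188, 0.0855 and 0.238 in KO and 0.807, 0.431 and 0.789 in WT, and those of Cd74 per H2-Ab1 were 0.41, 0.166 and 0.409 in KO and 1.59, 0.571 and 1.4 in WT. The ratio of the 2 chains of I-A was thus lower in KO, with no overlap between genotypes. Per kilobase, H2-Aa stood below H2-Ab1 in both, at 1.03 against 17.2 CPM per kb in LK KO and 6.86 against 30.4 in LK WT.

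The LK calls were sensitive to single libraries. Without 1 library in turn, 0 (KO A), 1 (KO B), 0 (KO C), 1 (WT A), 7 (WT B) or 4 (WT C) of the 10 were called lower, while 37, 40, 36, 33, 268 and 134 genes were called of all. Without both letter B libraries 2 were called, and without both letter A or both letter C libraries 0, where 71, 0 and 14 genes were called of all. The log2 fold changes of the 10 stayed below 0 under every alternative run, from -3.44 for H2-Q7 to -0.30 for H2-Ab1. DESeq2 called 9 of the 10. No share of all genes is given for DESeq2 in LK, so its counts here and below have no background to be read against.

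Markers of other cell types moved with these differences in LK. The summed level of 10 monocyte markers, all detected, was 730 to 1212 CPM in KO against 2289 to 4058 in WT, and that of 10 neutrophil markers 8502 to 16446 against 21622 to 47100. Eosinophil, basophil and mast cell markers (11 of 11 detected) summed to 152 to 354 CPM in KO against 726 to 2193 in WT. Called lower were 2 of 9 monocyte markers tested, 0 of 10 neutrophil markers and 4 of these 11. None of the 3 lists had a marker called higher, and 0.661% of all genes were called lower. Marker sums of the classical class II cells overlapped between genotypes: 11 B cell markers at 90.7 to 208 against 172 to 263 CPM, 11 macrophage markers at 142 to 276 against 243 to 333 with Timd4 at 0 in KO, and 13 dendritic cell markers at 75.4 to 183 against 36 to 90. Single macrophage markers did separate. Adgre1, alone called of 6 tested, had 2.1, 1.61 and 3.35 CPM in KO against 11.5, 9.4 and 9.04 in WT. Csf1r had 106, 75.8 and 124 against 244, 143 and 158. No B cell or dendritic cell marker was called, and Flt3, also a progenitor marker, was the highest dendritic cell marker. The part of these lists in the result was not tested.

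Genes that make and load class I peptides did not show the same picture in LK. None of 14 processing genes was called (1 had an unadjusted p under 0.05, and DESeq2 called 1 lower), with a median log2 fold change of -0.28. The letter block called 2 lower, Psmb9 and Pdia3, where it called 12.8% of all genes lower. The peptide transporter genes stood at 153, 113 and 151 CPM in KO against 167, 123 and 147 in WT for Tap1 (log2 fold change -0.07, SE 0.24, edgeR adjusted p = 0.902), and at 203, 218 and 207 against 137, 205 and 129 for Tap2 (0.41, adjusted p = 0.456). Psmb9, an immunoproteasome subunit, had the smallest p of the list, at 49.6, 63.7 and 45.6 CPM in KO against 103, 272 and 90.2 in WT (log2 fold change -1.55, SE 0.45, edgeR adjusted p = 0.141, and 0.00919 with the block). Tap2 and Tap1 thus overlapped between genotypes and Psmb9 did not.

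The median log2 fold change of 12 other class I or class I-like genes tested in LK was -1.10. Of the 12, 2 were called lower and none higher, where 0.661% of all genes were called lower. These were H2-Q5, annotated as a polymorphic pseudogene, at 2.91 ± 0.183 CPM in KO and 19.9 ± 7.62 in WT (log2 fold change -2.76, SE 0.33, edgeR adjusted p = 0.0134), and H2-T22, a ligand of gamma delta T cells, at 19.6 ± 2.62 and 52.7 ± 3.97 CPM (-1.43, SE 0.21, adjusted p = 0.0264; SD, n = 3 each). The letter block called 8 lower, against 12.8% of all genes, adding H2-T10, H2-M3, Fcgrt, Cd1d1, Hfe and H2-T23, and DESeq2 called 7. With 1 library left out, 0 to 2 were called lower. H2-Q5 lost its call without KO library A, B or C, and H2-T22 without these or WT library A.

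Of 11 genes of class II assembly and lysosomal processing tested in LK, 1 was called higher and 1 lower, and the median log2 fold change was -0.06. Over all genes, 1.15% were called higher and 0.661% lower. The cathepsin gene Ctss, whose protease trims the invariant chain in antigen-presenting cells, was lower, at 17.8, 9.17 and 14.8 CPM in KO against 45.5, 40.3 and 37.4 in WT (log2 fold change -1.56, SE 0.29, edgeR adjusted p = 0.0464). Ctsl, which serves the same step in thymic epithelium, was higher, at 41.7 ± 2.92 CPM in KO and 18.2 ± 1.86 in WT (1.20, SE 0.20, adjusted p = 0.0378). Ctss lost its call without any 1 library, and Ctsl without any but WT library B. The letter block added Ifi30 (lower) and H2-Ob (higher), where it called 22.7% of all genes in either direction.

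None of 14 transcriptional regulators of MHC genes was called in LK (2 with an unadjusted p under 0.05, and 1 lower by DESeq2). Nlrc5, the class I coactivator, had 42.6, 39.8 and 84.1 CPM in KO against 36.6, 21.4 and 41.7 in WT (log2 fold change 0.74, SE 0.38, edgeR adjusted p = 0.376, and 0.0353 with the block). Ciita, the class II coactivator, had 0.894, 0.201 and 0.91 CPM in KO against 2.65, 1.05 and 1.89 in WT (-1.44, SE 0.59, adjusted p = 0.269, and 0.0253 with the block). With the block Nlrc5 was thus called higher (not with the trend on transcript length removed as well), and Ciita, Irf8 and Spi1 lower. Irf8, a myeloid transcription factor, had 216, 152 and 189 CPM in KO against 537, 360 and 325 in WT (-1.13, adjusted p = 0.109, and 0.00644 with the block). Of 25 interferon response genes none was called (2 with an unadjusted p under 0.05, 0 by DESeq2), and the median was -0.31. The block called Gbp2, Igtp and Irgm1 higher and Ifngr2 lower. Over all genes the block called 22.7% in either direction.

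**Figure D3:**
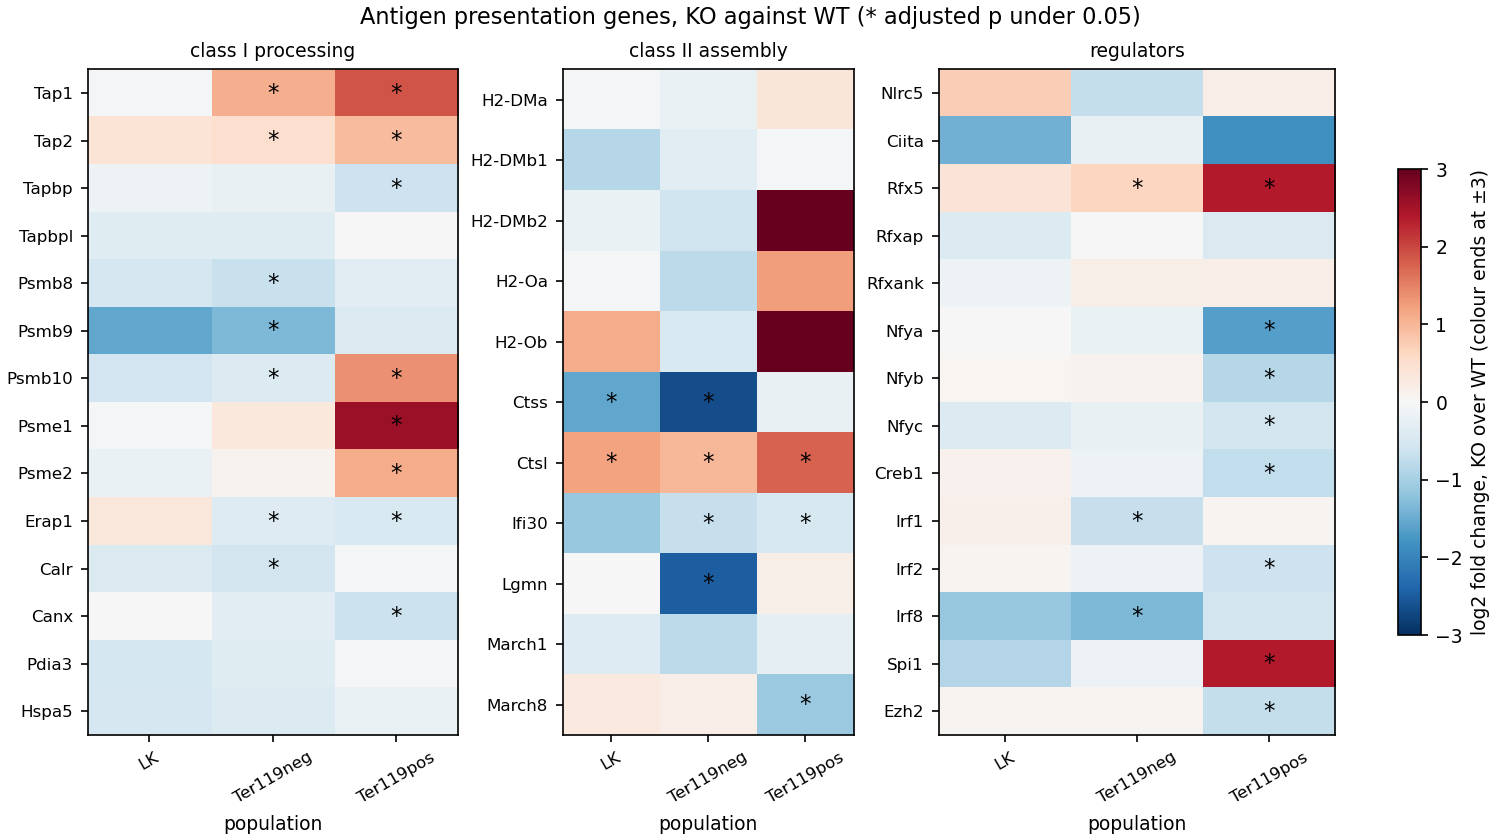
Log2 fold change of KO over WT (colour, ends at ±3) for genes of class I processing, class II assembly and MHC regulation in LK, Ter119neg and Ter119pos; a star marks an edgeR adjusted p under 0.05. In Ter119pos, Psme1 (2.58), Spi1 (2.39) and Rfx5 (2.37) are the starred genes with the highest values, and the unstarred dark red H2-DMb2 and H2-Ob in Ter119pos rest on 0 counts in WT.

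In Ter119neg fetal liver cells, 1 class I gene and 2 class II genes were lower in KO. Of the 10, 3 were called lower (H2-K1, H2-Aa and Cd74) and none higher, where 9.55% of 15566 genes were called lower, 9.57% higher and 19.1% in either direction. All 10 log2 fold changes were below 0, with a median of -0.51 against 0.01 over all genes, and in 6 every KO library lay below every WT library, which held for 31.1% of genes. Leaving out 1 Ter119neg library left 1 in its group, and fewer genes were then called of all than in the main fit. Of the 10, as many or fewer were called. The log2 fold changes of the 3 ranged from -0.76 to -0.66 (H2-K1), -1.45 to -0.99 (H2-Aa) and -1.31 to -0.79 (Cd74) in these runs.

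H2-K1 had 14.2 and 13.9 CPM in Ter119neg KO (libraries A and B) against 23 and 21.7 in Ter119neg WT (log2 fold change -0.67, SE 0.14, edgeR adjusted p = 0.00491), and it stayed called in every alternative run. H2-D1 had 29.1 and 32.6 CPM in KO against 39.6 and 39.5 in WT, and B2m 31.8 and 33 against 40.1 and 37.3. Both pairs of groups were separate, but neither gene was called (H2-D1 log2 fold change -0.36, edgeR adjusted p = 0.084; B2m -0.26, adjusted p = 0.21). Counts of H2-K1 per count of B2m were 0.447 and 0.422 in KO and 0.574 and 0.582 in WT. The 3 H2-Q genes were close to absent, with summed counts of 41.97 and 16.04 in KO against 57.54 and 32.1 in WT. The difference of that sum was not called (log2 fold change -0.27, SE 0.46, edgeR adjusted p = 0.728) and changed sign with a library left out.

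Among the class II genes of Ter119neg cells, Cd74 had 1.84 and 2.61 CPM in KO against 3.85 and 5.01 in WT (log2 fold change -0.99, SE 0.27, edgeR adjusted p = 0.0228). H2-Aa had 0.962 and 1.09 CPM in KO against 1.98 and 2.74 in WT (-1.19, SE 0.28, adjusted p = 0.0115). Both were separated by genotype, though Cd74 lost its call without KO library A (adjusted p = 0.137) or WT library B (0.147), and H2-Aa without these (0.076 and 0.108), without KO library B (0.0537) and in DESeq2 (0.0707). H2-Eb1 had 0.22 and 0.745 CPM in KO against 1.09 and 1.19 in WT (-1.23, SE 0.46, adjusted p = 0.0856), and ranged from -2.39 without KO library B (adjusted p = 0.0219) to -0.64 without KO library A (0.416). It was called in limma-voom (adjusted p = 0.0342) and with no low-count filter (edgeR adjusted p = 0.0134). H2-Ab1 had 1.26 and 1.84 CPM in KO against 1.61 and 2.67 in WT, which overlapped (-0.46, SE 0.35, adjusted p = 0.407).

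Markers of antigen-presenting cells also moved in Ter119neg cells. The summed level of 11 macrophage markers, all detected, was 70.2 to 73.4 CPM in KO against 175 to 191 in WT, that of 10 monocyte markers 40.3 to 41.9 against 93.5 to 134, and that of 11 B cell markers 10.6 to 14 against 23.4 to 25.6. The 13 dendritic cell markers summed to 29.2 to 29.9 CPM in KO against 34.3 to 34.5 in WT. Of that sum Zbtb46 made 17.2 and 19.3 CPM in KO and 13.1 and 12.9 in WT. Of 10 tested, Zbtb46 was called higher and Flt3 and Cd86 lower, with a median log2 fold change of -0.71. Other lists moved too: 10 neutrophil markers were at 958 to 1343 CPM in KO against 1735 to 1801 in WT, and 7 hepatoblast markers at 125 to 254 against 271 to 436. The sum of 11 erythroid markers was higher in KO, at 1089 to 1709 against 792 to 875, with 6 called higher and Tfrc lower. The part of these lists in the result was not tested. Class II assembly genes included 3 called lower of 11, with Ctss at 1.35 and 1.76 CPM in KO against 8.66 and 11.1 in WT (log2 fold change -2.67, SE 0.28, edgeR adjusted p = 6.11e-05) and the asparaginyl endopeptidase gene Lgmn at 2.77 ± 0.199 and 15.5 ± 2.94 (-2.48, SE 0.16, adjusted p = 5.51e-06). Ifi30 was also lower (-0.68) and Ctsl higher (1.00), and the median of the list was -0.60. Over all genes, 9.55% were called lower and 9.57% higher.

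Class I processing genes in Ter119neg cells went both ways, with 2 called higher and 5 lower of 14 and a median log2 fold change of -0.36. Over all genes, 9.57% were called higher there and 9.55% lower. Tap1 had 16.8 and 19.4 CPM in KO against 7.95 and 9.06 in WT (log2 fold change 1.09, SE 0.19, edgeR adjusted p = 0.00191), and Tap2 12 and 13.2 against 9.16 and 8.64 (0.50, adjusted p = 0.0225). The adjoining immunoproteasome genes went the other way: Psmb8 had 9.51 and 11.9 CPM in KO against 16.7 and 17.2 in WT (-0.66, SE 0.14, edgeR adjusted p = 0.00547) and Psmb9 2.07 and 1.65 against 4.13 and 5.35 (-1.35, SE 0.32, adjusted p = 0.0119). The transporter genes were thus higher and these 2 proteasome subunits lower, without overlap in any of the 4. Psmb10, Erap1 and Calr were also called lower. With any 1 Ter119neg library left out, 1 was called higher (Tap1) and 1 or 2 lower.

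Of 14 regulators in Ter119neg cells, 1 was called higher and 2 lower, close to the 19.1% of all genes called there in either direction. Rfx5, a subunit of the X box factor RFX, was higher at 10.3 and 9.92 CPM in KO against 6.07 and 6.99 in WT (log2 fold change 0.64, SE 0.17, edgeR adjusted p = 0.0218). Irf1, an interferon response factor that binds class I promoters, was lower at 3.93 and 4.39 CPM against 6.11 and 7.47 (-0.70, adjusted p = 0.0389). Irf8 was lower at 9.43 and 8.35 CPM against 21.9 and 23.2 (-1.34, SE 0.18, adjusted p = 0.000412) and alone of the 3 kept its call with any 1 of the 4 libraries left out. Of 9 other class I genes, H2-T23, Fcgrt and Hfe were called lower, 1 or 2 of them with a library left out. Of 25 interferon genes 2 were higher (Jak1 and Ifi35) and 5 lower (Ifnar1, Ifnar2, Ifngr1, Ifngr2 and Oasl2), falling to 0 to 2 higher and 2 or 3 lower with a library left out.

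In Ter119pos erythroid cells the classical class I genes went the opposite way, higher in KO. Of the 10, 3 were called higher (H2-K1, H2-D1 and B2m) and none lower, in a comparison where 24.8% of 15566 genes were called higher, 29.3% lower and 54.2% in either direction. These 3 were called in every alternative run. In 6 of the 10 every KO library lay above every WT library, which held for 35.8% of genes. Besides H2-K1, H2-D1 and B2m these were H2-Q4, H2-Aa and Cd74, with 3, 6 and 15 counts in KO against 2, 5 and 12 in WT. The median log2 fold change of the 10 was 0.66, against -0.04 over all genes. It includes the H2-Q and class II genes, which had few counts here and passed the filter only through Ter119neg.

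H2-K1 had 21.6 and 29.6 CPM in Ter119pos KO (libraries A and B) against 4.63 and 4.47 in Ter119pos WT. It was 5.59-fold higher (log2 fold change 2.48, SE 0.17, edgeR adjusted p = 2.64e-07). H2-D1 had 44.9 and 62.2 CPM in KO against 20.8 and 21.4 in WT (log2 fold change 1.34, SE 0.14, adjusted p = 7.31e-06). B2m had 30.8 and 40.5 CPM in KO against 17.7 and 13.8 in WT (1.17, SE 0.15, adjusted p = 3.28e-05). In each of the 3 the groups were wide apart, with KO library B above KO library A.

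The ratio of the heavy chains also differed between genotypes. Counts of H2-K1 per count of H2-D1 were 0.481 and 0.476 in Ter119pos KO and 0.223 and 0.209 in Ter119pos WT, and counts of H2-K1 per count of B2m were 0.701 and 0.731 in KO and 0.262 and 0.323 in WT. The KO ratios of H2-K1 to H2-D1 in Ter119pos lay close to those of Ter119neg KO, at 0.488 and 0.426. H2-D1 per B2m overlapped between genotypes, at 1.46 and 1.54 in KO and 1.17 and 1.55 in WT. H2-K2 is a transcribed pseudogene near H2-K1 on the same strand (chromosome 17, 33974659 to 33978827), and it was picked after its values were seen. It was at 2.28 ± 0.214 CPM in KO and 0.239 ± 0.0788 in WT (SD, n = 2 each, log2 fold change 3.22, SE 0.65, edgeR adjusted p = 0.00108). H2-Ke6, on the other side of H2-K1 and on the same strand (chromosome 17, 34026033 to 34028060), was called lower. It was at 2.77 ± 0.69 CPM in KO and 4.53 ± 0.903 in WT (log2 fold change -0.72, SE 0.26, edgeR adjusted p = 0.035).

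**Figure D4:**
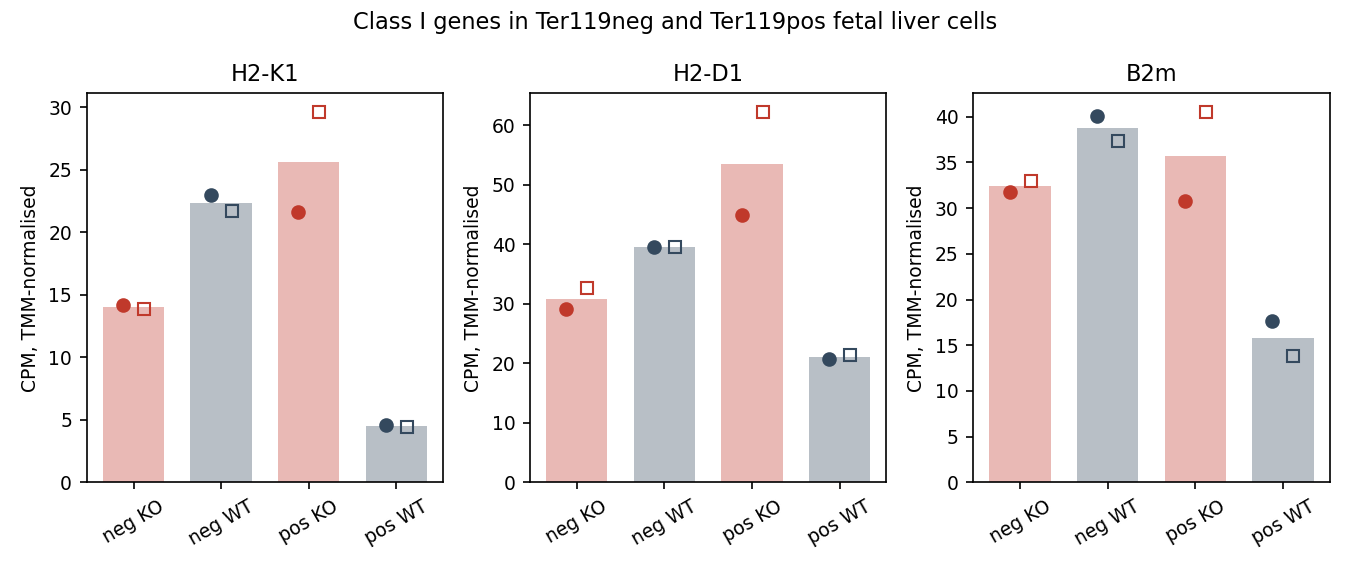
Level of H2-K1, H2-D1 and B2m (CPM, TMM-normalised) in the 4 fetal groups, KO in red left of WT in dark blue within each fraction; points are libraries A (filled) and B (open) and bars the mean of 2. In Ter119neg the KO bars are the lower ones, and in Ter119pos the higher ones, for example 25.6 in KO and 4.55 in WT for H2-K1.

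The remaining genes were near the limit of detection in Ter119pos cells. H2-Q4, H2-Q6 and H2-Q7 had 1 to 3 counts per group in each genotype, so no fold change is given, and their sum was 4.01 and 2.21 counts in KO against 4 and 1 in WT. With all H2-Q rows summed, the difference was called (log2 fold change 1.52, SE 0.54, edgeR adjusted p = 0.0299). That sum holds H2-Q10, a class I gene of the liver, with 13 and 8.23 counts in KO against 2 and 6.03 in WT. Cd74 had 0.56 and 0.604 CPM in KO against 0.541 and 0.177 in WT (log2 fold change 0.69, adjusted p = 0.356), and 0.10 without WT library B or 1.69 without WT library A, called in neither. H2-Aa had 0.21 and 0.259 CPM against 0.18 and 0.118 (0.63, adjusted p = 0.55), H2-Ab1 0.14 and 0.604 against 0.241 and 0.353 (0.24, adjusted p = 0.824) and H2-Eb1 2 counts in all against 7, a ratio of 0.371 (95% counting interval 0.0376 to 1.95; adjusted p = 0.364). At this depth no class II difference was detectable in Ter119pos cells.

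Marker sums in Ter119pos cells were set beside these values. Lower in KO or overlapping were 11 macrophage markers (103 to 109 CPM in KO against 136 to 193 in WT), 10 monocyte markers (12.9 to 18.6 against 14.2 to 19.5), 10 neutrophil markers (28.4 to 80.5 against 93.1 to 183) and 11 B cell markers (1.33 to 2.67 against 1.94 to 5.07, with Ms4a1 at 0 in both and Pax5 at 0 in KO). Higher in KO were the sums of 9 progenitor markers (29.2 to 36.2 against 24.4 to 28.4 CPM, Ly6a at 0 in WT), 7 hepatoblast markers (55 to 82.1 against 31.2 to 44.2) and 9 endothelial and stromal markers (30 to 43.2 against 8.42 to 12.8). Single members went both ways. Of the progenitor markers Kit was called higher and Flt3 lower. Of the endothelial and stromal markers 4 were called higher and 2 lower (Cdh5 and Stab2), and of the hepatoblast markers 3 and 0. Over all genes, 24.8% were called higher and 29.3% lower. The 13 dendritic cell markers summed to 73.4 to 75.7 CPM in KO and 30.1 to 32.3 in WT, of which Zbtb46 alone made 73.6 and 71.6 against 28.3 and 27.1, while Siglech and Ccr7 were at 0 in KO and Xcr1, Cd209a and Batf3 at 0 in WT. The part of these markers in the class I result was not tested. The erythroid globin Hbb-bs was at 131033 and 169547 CPM in KO and 120695 and 108395 in WT.

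Of 14 class I processing genes in Ter119pos cells, 5 were called higher and 3 lower, close to the 54.2% of all genes called there, with a median log2 fold change of -0.06. The counts were 5 and 3 with any 1 of the 4 Ter119pos libraries left out. Psme1, a subunit of the interferon-inducible proteasome activator, was at 77.1 ± 14.7 CPM in KO and 12.9 ± 0.532 in WT (log2 fold change 2.58, SE 0.14, edgeR adjusted p = 9.03e-08), and its partner Psme2 at 51.9 ± 8.18 and 24 ± 3.07 (1.11, adjusted p = 4.05e-05; SD, n = 2 each). Tap1 had 3.5 and 5.87 CPM in KO against 1.62 and 0.883 in WT (1.88, SE 0.32, adjusted p = 0.000302), and Tap2 4.48 and 3.8 against 1.98 and 2.35 (0.94, adjusted p = 0.00204). Both transporter genes were thus higher, as was Psmb10 (1.38). Canx, Tapbp and Erap1, which fold, load and trim for class I in the endoplasmic reticulum, were called lower (-0.65, -0.63 and -0.45), and Erap1 was no longer called once a length trend had been taken out. Psmb8 and Psmb9, added here after their values were seen because they were called in Ter119neg, were not called, at 1.26 and 1.38 CPM in KO against 1.8 and 1.53 in WT and at 0.495 and 0.518 against 1.14 and 0.235.

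Of 14 regulators in Ter119pos cells, 2 were called higher and 6 lower (54.2% of all genes were called), with a median log2 fold change of -0.55, and 2 and 5 to 7 with a library left out. Rfx5 had 7.91 and 5.19 CPM in KO against 1.2 and 1.36 in WT (log2 fold change 2.37, SE 0.26, edgeR adjusted p = 7.62e-06), and Spi1, the myeloid factor PU.1, was at 10.2 ± 0.352 and 1.94 ± 0.408 (2.39, SE 0.20, adjusted p = 9.07e-07; SD, n = 2 each). The NF-Y subunits that bind ATTGG were all lower, Nfya at 18.4 ± 1.93 CPM in KO and 58.3 ± 8.12 in WT (-1.66, adjusted p = 6.96e-07), Nfyb (-0.86) and Nfyc (-0.56). Creb1, Irf2 and Ezh2 were also lower. Irf1 (1.05 and 0.949 CPM in KO against 1.32 and 0.588 in WT), Nlrc5 (0.21 and 0.431 against 0.421 and 0.118) and Ciita (0 and 0.0863 against 0.12 and 0.177) were near the detection limit or overlapped.

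Interferon response genes in Ter119pos cells went both ways, with 5 called higher and 8 lower of 25 (54.2% of all genes were called) and a median log2 fold change of -0.62. Bst2 (2.07, edgeR adjusted p = 0.000135) and Ifi35 (1.06) were among those higher, and the receptor gene Ifnar1 (-1.51, adjusted p = 5.42e-07), Ifnar2 (-0.96) and Irf9 (-1.52) among those lower. With a Ter119pos library left out, 3 to 5 were higher and 5 to 12 lower. Among 9 other class I genes, H2-T22 (0.69) and H2-Q10 (1.75) were called higher and H2-T24 and Hfe lower, and with a library left out 1 or 2 were higher and 1 to 3 lower. H2-T24 had the smallest p of that list, at 9.25 ± 0.879 CPM in KO and 98.1 ± 38 in WT (log2 fold change -3.40, SE 0.23, adjusted p = 2.61e-07; SD, n = 2 each). Of 11 class II assembly genes, Ctsl was called higher (1.78), and Ifi30 and March8, whose ligase removes class II and other proteins from the surface, lower (-0.49 and -1.12).

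**Figure D5:**
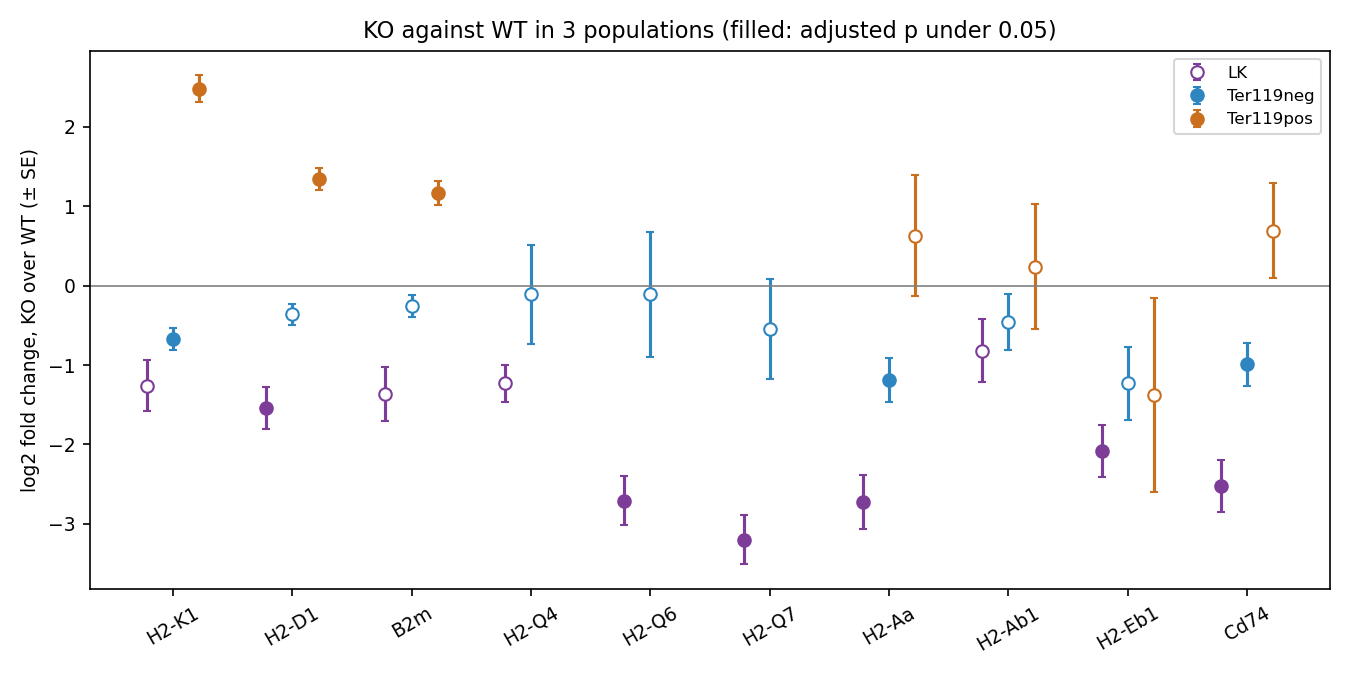
Log2 fold change of KO over WT with its SE for the 10 genes in LK, Ter119neg and Ter119pos; filled points had an edgeR adjusted p under 0.05, and H2-Q4, H2-Q6 and H2-Q7 are not drawn in Ter119pos, where both genotypes had 3 counts or fewer. H2-K1 runs from -1.26 in LK through -0.67 in Ter119neg to 2.48 in Ter119pos.

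Whether KO acted differently in the fetal fractions was tested directly as an interaction. It was called for 3 of the 10, all higher in Ter119pos, where 19.3% of genes were called higher, 22.4% lower and 41.7% in either direction. The estimates were 3.15 for H2-K1 (SE 0.22, edgeR adjusted p = 4.86e-06), 1.70 for H2-D1 (SE 0.20, adjusted p = 5.33e-05) and 1.43 for B2m (SE 0.20, adjusted p = 0.000181), on the log2 scale. For Cd74 the estimate was 1.68 (SE 0.66, adjusted p = 0.0593, and 0.00666 with the mouse as a block), from 1.09 to 2.89 over 18 alternatives, 6 of which called it. It was 1.82 for H2-Aa (SE 0.83, adjusted p = 0.0958) and 0.69 for H2-Ab1 (SE 0.87, adjusted p = 0.557). The LK libraries came from other cells and another RNA kit and were normalised apart, so LK effects were not tested against fetal ones.

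The fraction comparison within each genotype shows where the KO value came to lie. In WT, H2-K1, H2-D1 and B2m were called lower in Ter119pos than in Ter119neg, where 40.4% of genes were lower, 35.9% higher and 76.3% in either direction. H2-K1 was at 4.55 ± 0.111 CPM in Ter119pos and 22.4 ± 0.915 in Ter119neg (log2 fold change -2.30, SE 0.16, edgeR adjusted p = 6.03e-08), H2-D1 at 21.1 ± 0.465 and 39.6 ± 0.109 (-0.91, SE 0.14, adjusted p = 7.78e-05) and B2m at 15.8 ± 2.72 and 38.7 ± 1.98 (-1.30, SE 0.15, adjusted p = 4.57e-06; SD, n = 2 each). Thus H2-K1 was lower by 4.92-fold and H2-D1 by 1.88-fold. The class II and H2-Q genes passed the filter only through Ter119neg, the higher fraction, so their differences are given as values and no count is drawn from them. The class II genes were lower by 5.38-fold (H2-Eb1) to 15.4-fold (H2-Aa). H2-Q7 had 2 counts in Ter119pos and 42 in Ter119neg, a ratio of 0.132 after depth correction (95% counting interval 0.0155 to 0.508). Its call (log2 fold change -2.79, edgeR adjusted p = 0.0308) was lost with the mouse as a block (adjusted p = 0.0893), in DESeq2 (0.0745), without Ter119neg WT library A (-1.66, adjusted p = 0.246) and without Ter119pos WT library B (-1.83, adjusted p = 0.194). B cell markers were at 1.94 to 5.07 CPM in Ter119pos WT against 23.4 to 25.6 in Ter119neg WT and monocyte markers at 14.2 to 19.5 against 93.5 to 134. The macrophage marker sums, at 136 to 193 against 175 to 191, overlapped, though of 11 tested 1 was called higher (Slc40a1) and 7 lower. Dendritic cell markers summed to 30.1 to 32.3 against 34.3 to 34.5, and Zbtb46 made 28.3 and 27.1 CPM of the Ter119pos sum. Of 10 dendritic cell markers tested, Zbtb46 alone was called higher and 8 lower, with a median log2 fold change of -2.68. The part of these markers in the result was not tested.

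In KO, H2-K1 and H2-D1 were called higher in Ter119pos than in Ter119neg, where 30.3% of genes were higher, 32.3% lower and 62.6% either. H2-K1 was at 25.6 ± 5.67 CPM in Ter119pos and 14.1 ± 0.214 in Ter119neg (log2 fold change 0.86, SE 0.14, edgeR adjusted p = 0.000197), and H2-D1 at 53.5 ± 12.2 and 30.9 ± 2.48 (0.79, SE 0.14, adjusted p = 0.000287; SD, n = 2 each). B2m was at 35.6 ± 6.83 and 32.4 ± 0.83 CPM with overlapping libraries (0.13, SE 0.14, adjusted p = 0.425), and turned to -0.35 (adjusted p = 0.0398) with the trend on transcript length removed. The class II genes, which passed the filter only through Ter119neg, had log2 fold changes of -2.12 (H2-Aa), -2.13 (H2-Ab1), -2.58 (H2-Eb1) and -1.93 (Cd74) in KO. H2-Ab1 moved to -1.37 (adjusted p = 0.0811) without Ter119pos KO library A and to -3.44 without library B. H2-Eb1 had 2 counts in Ter119pos KO and 36 in Ter119neg KO, a ratio of 0.159 (95% counting interval 0.0185 to 0.617), and lost its call in DESeq2, in limma-voom and without either Ter119pos KO library or Ter119neg KO library B (where it was -1.36, adjusted p = 0.281). Markers of class II cells differed between the fractions too, with B cell markers at 1.33 to 2.67 CPM in Ter119pos KO against 10.6 to 14 in Ter119neg KO and monocyte markers at 12.9 to 18.6 against 40.3 to 41.9. Macrophage markers went the other way, at 103 to 109 CPM in Ter119pos KO against 70.2 to 73.4 in Ter119neg KO. Of 11 tested, 8 were called higher and 2 lower. The dendritic cell sum was also higher, at 73.4 to 75.7 against 29.2 to 29.9, through Zbtb46 (73.6 and 71.6 against 17.2 and 19.3). Of 10 dendritic cell markers tested, Zbtb46 alone was called higher and 6 lower, with a median log2 fold change of -3.07. The part of these markers in the result was not tested.

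Across the 14 libraries, the genes most like the mean of H2-K1, H2-D1 and B2m on the log2 scale, among 9447 compared, were Pnpla2 and Dap (Pearson r of 0.987 each), Itm2b (0.982), Sfxn3 (0.975) and Hlx (0.972). Most like the mean of the 4 class II genes were Matk (0.981), Ctsh (0.979), Trabd (0.979), Tcn2 (0.977) and Man1c1 (0.972). These are descriptions: the points share their library, and the LK and fetal sets lie apart.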

How the data were processed

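RNA sequencing libraries (TruSeq Total Stranded, with Ribo-Zero and Trizol for fetal liver and the RNeasy Plus Micro kit for LK cells, per the labels' protocols) had been processed by the authors with STAR 2.5.3, RSEM (version not given) and the build GRCm38/mm10, as the submitters' processing notes list them. The authors deposited 2 tables of RSEM expected counts per gene, one for LK and one for fetal liver, which were rounded to whole numbers for testing. Of 45706 rows, 45143 carry a GENCODE identifier of the annotation used for names and lengths.

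Each table was filtered with filterByExpr (13771 LK and 15566 fetal genes kept), normalised by TMM and tested with edgeR 4.0.16 (R 4.3.3), with Benjamini-Hochberg adjustment over all genes of a table and a threshold of 0.05. SE is the absolute log2 fold change over the square root of F. The LK model used 6 libraries and the fetal model all 8. The scripts were tested on simulated data. Summed H2-Q rows were added to the table as 1 row. Counting intervals cover counting error only.

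The genes and gene lists were chosen with earlier results of these data known, and 1 regulator is not reported here. Named are the 10 genes, up to 5 genes of each list with the smallest p, a few regulators, genes making up small counts, marker genes at 0 or highest, and the 5 genes most like each class by Pearson r of log2(CPM + 1) among genes with a mean of at least 5 CPM.

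Samples were grouped by genotype, fraction and cell type from the labels. LK libraries of the same letter deviated from their group means together (r of 0.604, 0.719 and 0.73), so LK letters were taken to pair the libraries, although the labels do not say what a letter shares. Fetal mice 1, 2 and 4 gave both fractions by their labels, so the mouse was used as a block for the fraction comparisons (r of 0.155 for mice 1 and 2 and -0.0678 for mouse 4). Alternatives were size factors by RLE, no filter, DESeq2 1.42.0, limma-voom (limma 3.58.1), blocks, protein-coding normalisation, globin genes removed, removal of a lowess trend (span 0.3) on transcript length, 1 fraction alone, each library or letter left out, and all 8 H2-Q rows summed.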

Additional observations from a re-analysis of the deposited data

Results flagged for a closer look

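The effect of KO differed between the fetal fractions for 3 genes by the interaction test, which subtracts the Ter119neg effect from the Ter119pos effect on the log2 scale. The estimate was 3.15 for H2-K1, 1.70 for H2-D1 and 1.43 for B2m (edgeR adjusted p = 4.86e-06, 5.33e-05 and 0.000181), each higher in both Ter119pos KO libraries and lower in both Ter119neg KO libraries than in the WT libraries of the same fraction.

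The H2-Q genes, which had 3 counts or fewer per genotype in Ter119pos cells, are left aside here. For 5 genes all LK KO libraries lay below all LK WT libraries while both Ter119pos KO libraries lay above both Ter119pos WT libraries. Taken singly, the LK pattern held for 12.9% of genes and the Ter119pos pattern for 35.8%. The share of genes with both was not computed, so the number 5 has no background to be read against. The log2 fold changes in LK and in Ter119pos were -1.26 and 2.48 for H2-K1, -1.54 and 1.34 for H2-D1, -1.37 and 1.17 for B2m, -2.72 and 0.63 for H2-Aa, and -2.52 and 0.69 for Cd74. The difference between LK and Ter119pos cells was not tested, since the tables were normalised apart, and the Ter119pos values of H2-Aa and Cd74 rest on 5 to 15 counts per genotype and were not called.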

How the results depend on the processing

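The number of the 10 genes called lower in LK was 10 with the replicate block by letter, 0 to 7 with 1 library left out, and 0, 2 and 0 without both letter A, both letter B and both letter C libraries. The LK H2-Q sum lost its call without both letter A (-2.48) or both letter C libraries (-2.34), and also without any single KO library, and ranged from -2.46 to -2.23 with 1 library left out. In Ter119neg, 5 genes were called with no low-count filter, where 3506 genes were called of all. With a library left out, as many or fewer of the 10 were called than in the main fit, and fewer of all genes. There the H2-Q sum ranged from -1.18 to 0.23, H2-Q4 from -0.84 to 0.99 (0.11 in limma-voom), H2-Q6 from -1.99 to 1.02 and H2-Q7 from -1.24 to 0.60. In Ter119pos the H2-Q sum was 1.52 over all H2-Q rows and -0.06 to 1.89 with a library left out, and H2-Ab1 was -0.00 in limma-voom, -0.16 with the length trend removed, -0.15 with the block as well, and -1.06 to 1.01 with a library left out. In the interaction, all H2-Q rows gave 1.96, H2-Ab1 ranged from -0.60 to 1.47, and H2-Eb1 was 0.51 in limma-voom, 0.82 with the mouse block and -0.67 to 1.13 with a library left out. Between the fractions in KO, the H2-Q sum was -1.84 with no filter, -1.75 with the letter block (with and without the length trend removed), -1.78 with the mouse block and -2.20 to -0.79 with a library left out. B2m was -0.35 with the length trend removed, with or without the block, and -0.08 to 0.31 with a library left out. In WT the H2-Q sum ranged from -3.93 to -1.98. The cause of these changes was not tested.

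Fetal KO and WT libraries of the same letter came from different mice (r of 0.00472 and -0.0288 between them within a fraction). The block by letter changed no call of the 10 genes between genotypes. Across the fractions a letter stood for the same mouse in KO, and letter B did in WT. The median of all genes in KO between the fractions was -0.12, against 0.03 with protein-coding normalisation, 0.02 with the length trend removed and 0.01 with globin genes removed. Of the alternatives for single genes, 700 kept direction and call, 56 lost and 31 gained the call, and 20 changed sign. A group left with 1 library takes its spread from the other groups of the fit. Ter119pos values of single H2-Q genes rest on 3 counts or fewer, and depth limits class II there. The model of Ter119pos alone gave values for H2-K1, H2-D1 and B2m only.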
